A study of Mus musculus with 8 samples.

Results

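The immunoproteasome and the class I peptide loading machinery were followed in mouse liver through 9 genes: the inducible proteasome subunits Psmb8, Psmb9 and Psmb10, the proteasome activator subunits Psme1 and Psme2, the peptide transporter subunits Tap1 and Tap2, the loading factor Tapbp and the class I light chain B2m. A gene was taken from the probe sets that the array annotation assigned to its symbol alone, and the probe set with the highest mean over the 8 arrays gave its value. On that rule 8 of the 9 genes were measured, among 12393 genes in all. Psme2 has no value here, because the annotation gave its probe set to Psme2b as well. Altogether 13 probe sets named a member alone, and those not chosen served as a check.

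Liver RNA of 4 genotypes was hybridised to Affymetrix arrays, with 2 arrays a genotype. The OB-/-/SHP-/- mice lacked both leptin and SHP, and the OB-/- mice lacked leptin with SHP present. The SHP-/- mice lacked SHP with leptin present, and the wild-type mice lacked neither. All were on a C57BL background, ate standard rodent chow and received no treatment. SHP, encoded by Nr0b2, is an atypical nuclear receptor that cannot bind DNA by itself and acts mainly as a corepressor, and leptin is the fat-derived hormone whose loss makes mice obese. The sources used here give neither the age and sex of the mice nor whether the arrays of a genotype came from different animals, so every p-value measures the spread between these arrays, which may be technical. OB-/- replicate 1 stood apart from the other arrays by its Xist signal of 7.41, against 4.31 to 4.70 on the other 7 (log2). In SHP-/- livers 17 genes differed by over 2 log2 units between the arrays, against 0 to 4 genes in the other genotypes. Where leaving out OB-/- replicate 1 or SHP-/- replicate 1 ended the call of a member, this is said beside it. Leaving out 1 of the compared arrays also lowered the calls over all genes, in every pairwise comparison except SHP-/- against wild-type livers.

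The proteasome cuts cytosolic proteins into peptides with 3 catalytic subunits, and interferon gamma makes cells replace these by Psmb8 (LMP7), Psmb9 (LMP2) and Psmb10 (MECL-1). The activator PA28, made of Psme1 and Psme2, opens the ends of the proteasome barrel. Tap1 and Tap2 then pump the peptides into the endoplasmic reticulum, where tapasin (Tapbp) holds the transporter beside class I molecules and edits their cargo, and B2m completes the molecule that carries the peptide to the cell surface. Hepatocytes carry low amounts of this machinery at rest and raise it under interferon.

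The genes of the transporter and of 2 inducible subunits lie side by side. In the RefSeq gene order Psmb9, Tap1, Psmb8 and Tap2 follow each other on chromosome 17 with 0 protein-coding genes between neighbours, and Tapbp lies 17 protein-coding genes away. Psme1 and Psme2 lie on chromosome 14 with 1 protein-coding gene between them, B2m on chromosome 2 and Psmb10 on chromosome 8. The RefSeq table of GRCm38.p6 held promoter windows, from 250 bases before to 50 after the start site, for 8 of the 9 genes, Tap2 being the one without.

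The promoters of the transporter subunit Tap1 and of Psmb8 are shown because these genes were among the most strongly changed, and those of B2m and Psme1 because they hold the interferon element although neither gene passed the test between OB-/-/SHP-/- and OB-/- livers. Igtp, an interferon-inducible GTPase that is no member, is shown for comparison because its values followed those of the members closely. Capitals mark matches on either strand to 5 motifs: the core of the interferon-stimulated response element (GAAANNGAAA), the STAT site (TTCNNNGAA), the kappa B site, the CCAAT box (CCAAT) and the GC box (GGGCGG).
Tap1, chr17:34187306-34187605, plus strand: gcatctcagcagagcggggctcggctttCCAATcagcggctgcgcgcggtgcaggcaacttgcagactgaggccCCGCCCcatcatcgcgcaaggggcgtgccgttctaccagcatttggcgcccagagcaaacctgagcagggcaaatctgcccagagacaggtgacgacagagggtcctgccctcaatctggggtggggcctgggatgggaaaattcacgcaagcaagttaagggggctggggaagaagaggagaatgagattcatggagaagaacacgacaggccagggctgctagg
Psmb8, chr17:34197945-34198244, plus strand: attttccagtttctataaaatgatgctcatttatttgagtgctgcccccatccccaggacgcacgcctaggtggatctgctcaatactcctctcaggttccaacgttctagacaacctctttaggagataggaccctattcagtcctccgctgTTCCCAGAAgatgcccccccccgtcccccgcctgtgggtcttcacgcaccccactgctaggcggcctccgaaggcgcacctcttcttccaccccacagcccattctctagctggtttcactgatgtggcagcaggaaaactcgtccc
B2m, chr2:122147437-122147736, plus strand: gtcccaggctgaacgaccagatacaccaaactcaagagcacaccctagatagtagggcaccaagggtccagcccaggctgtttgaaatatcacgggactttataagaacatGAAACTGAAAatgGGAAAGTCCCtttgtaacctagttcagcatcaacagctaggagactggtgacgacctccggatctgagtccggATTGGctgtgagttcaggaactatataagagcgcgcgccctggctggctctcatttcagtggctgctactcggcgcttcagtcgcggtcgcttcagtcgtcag
Psme1, chr14:55578244-55578543, plus strand: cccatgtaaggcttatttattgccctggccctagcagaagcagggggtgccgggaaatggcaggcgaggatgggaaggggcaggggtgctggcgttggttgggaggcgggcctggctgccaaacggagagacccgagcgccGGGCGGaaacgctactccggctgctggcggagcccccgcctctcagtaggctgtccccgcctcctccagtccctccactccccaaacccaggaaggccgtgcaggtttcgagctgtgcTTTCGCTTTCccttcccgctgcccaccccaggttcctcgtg
Igtp, chr11:58199306-58199605, plus strand: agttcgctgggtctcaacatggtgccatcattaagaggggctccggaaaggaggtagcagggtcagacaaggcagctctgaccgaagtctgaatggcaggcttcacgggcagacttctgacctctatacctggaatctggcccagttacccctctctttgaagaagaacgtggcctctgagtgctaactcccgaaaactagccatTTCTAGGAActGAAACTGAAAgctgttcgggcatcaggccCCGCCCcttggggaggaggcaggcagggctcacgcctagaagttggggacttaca

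Tap1 and Psmb9 are transcribed away from each other, with 225 bases between their start sites, and their windows share 275 bases (chr17:34187306-34187580). The capitals in the Tap1 window, a CCAAT box and a GC box, are therefore in the Psmb9 window too, and neither window held the interferon element, the STAT site or the kappa B site. In Psmb8 the STAT site TTCCCAGAA began 97 bases before the start site. In B2m the interferon element GAAACTGAAA began 139 bases and the kappa B site GGAAAGTCCC 126 bases before it. The Psme1 element lay 9 bases after the start, on the minus strand. The interferon element was present in 2 of the 8 genes with a window, against 3.44% of all 32851 promoters, and the STAT site in 1 of the 8, against 8.3%. A kappa B site stood in 1 of the 8, against 8.46% of all promoters, a CCAAT box in 4, against 37.4%, and a GC box in 5, against 35.7%. None of the motifs was found in the Psmb10 window. A match is a string of letters and was not measured as a binding site.

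Of the 8 measured genes 6 were higher in OB-/-/SHP-/- livers than in OB-/- livers: Tap1, Psmb9, Psmb8, Psmb10, Tap2 and Tapbp, by 6.20-fold to 1.57-fold. B2m and Psme1 did not pass the test. The question this comparison addresses is what SHP loss does in leptin-null liver. Across the array 1.26% of the 12393 genes were called higher and 0.88% lower at an adjusted p below 0.05 (limma, Benjamini-Hochberg), and 0 members were called lower. The median difference of the 8 members was 1.44 on the log2 scale, against 0.01 over all genes. For 7 members, Psme1 being the exception, the OB-/-/SHP-/- arrays lay above the OB-/- arrays without overlap, as they did for 21.0% of all genes. In bulk liver RNA a change in the number of cells of a type and a change in RNA per cell cannot be told apart.

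**Figure D1:**
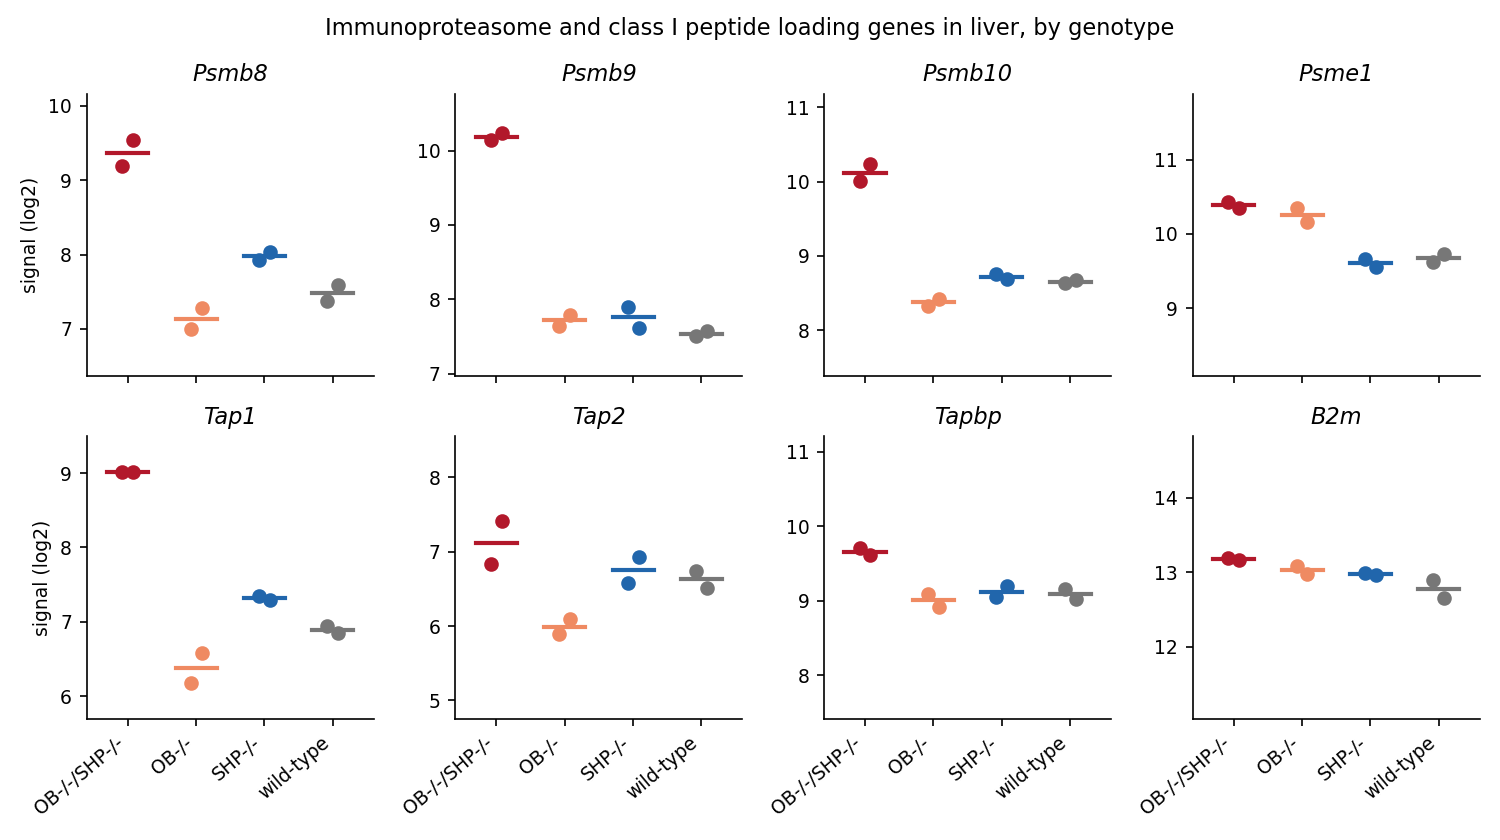
Signal (log2) of the 8 measured genes on every array, with the 2 arrays of a genotype as points and their mean as a line; every panel spans the same number of log2 units. The OB-/-/SHP-/- arrays stand above all other arrays for Psmb8, Psmb9, Psmb10, Tap1 and Tapbp, and narrowly for B2m, which varies little. Psme1 is high on both leptin-null genotypes.

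Psmb9, which replaces the constitutive subunit Psmb6, had signals of 10.15 and 10.23 in OB-/-/SHP-/- livers, 7.65 and 7.79 in OB-/- livers, 7.90 and 7.62 in SHP-/- livers, and 7.51 and 7.58 in wild-type livers (log2 signal). The double knockout stood more than 2 log2 units above every other array, and the other genotypes lay close together. It was 5.54-fold higher in OB-/-/SHP-/- than in OB-/- livers (2.47 ± 0.14 log2, SE, adjusted p = 1.8e-06), and ranked 20 of 12393 genes from the top by log2 difference.

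Psmb8, which replaces Psmb5 and carries chymotrypsin-like activity, had 9.19 and 9.54 in OB-/-/SHP-/- livers, 6.99 and 7.28 in OB-/- livers, 7.93 and 8.04 in SHP-/- livers, and 7.38 and 7.59 in wild-type livers. Its 4 genotypes did not overlap, with OB-/- lowest and SHP-/- second highest. The difference between OB-/-/SHP-/- and OB-/- was 2.23 ± 0.16 log2 (4.68-fold, adjusted p = 1.7e-05).

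Psmb10, the replacement of Psmb7, had 10.01 and 10.24 in OB-/-/SHP-/- livers, 8.33 and 8.42 in OB-/- livers, 8.76 and 8.69 in SHP-/- livers, and 8.63 and 8.67 in wild-type livers. Again the OB-/- arrays were the lowest and the double knockout arrays the highest, without overlap. The difference was 1.75 ± 0.14 log2 (3.35-fold, adjusted p = 2.3e-05).

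The constitutive subunits that these 3 proteins displace did not pass the test in this comparison. Psmb5 had 10.55 and 10.62 in OB-/-/SHP-/- livers against 10.82 and 10.65 in OB-/- livers (-0.15 log2, 95% interval -0.44 to 0.14). Psmb6 had 10.05 and 10.27 in OB-/-/SHP-/- livers against 10.16 and 10.24 in OB-/- livers (-0.04, -0.34 to 0.26). Psmb7 had 11.41 and 11.30 in OB-/-/SHP-/- livers against 11.14 and 11.17 in OB-/- livers (0.20, -0.09 to 0.49). Each interval lay below that of the inducible counterpart, whose lowest bound was 1.45 log2. Whether the inducible and constitutive subunits differed in response was not tested in 1 model. Of the 11 other subunits of the 20S core, 0 were called in this comparison in either direction, where 1.26% of all genes were called higher and 0.88% lower. Their median difference was 0.08 log2, and 0 had an unadjusted p below 0.05. The brightest of them, Psmb4 and Psma3, had differences of -0.12 and 0.11 log2.

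**Figure D2:**
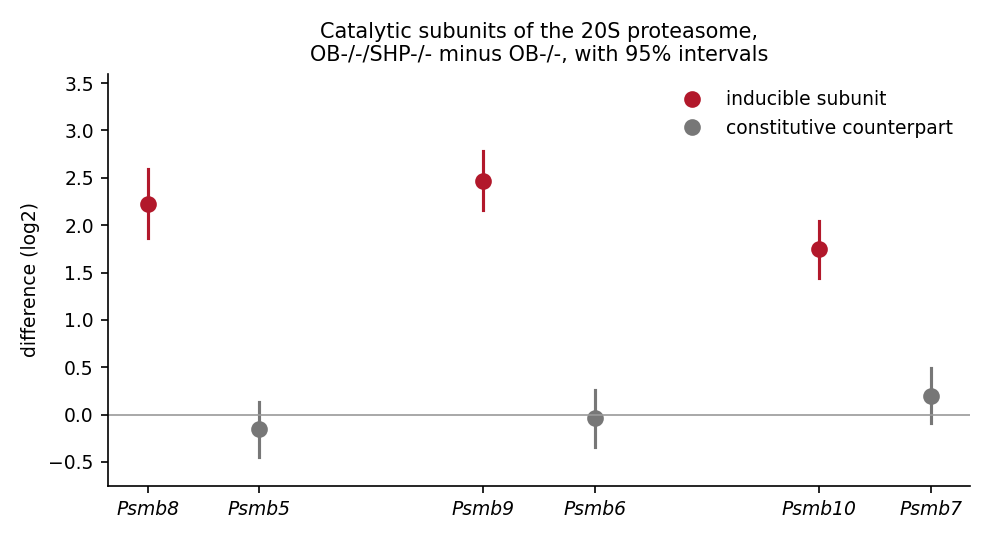
Difference between OB-/-/SHP-/- and OB-/- livers (log2, points) with its 95% interval (lines) for each inducible catalytic subunit and, to its right, the constitutive subunit it replaces. The inducible subunits lie at 2.23, 2.47 and 1.75, and their counterparts at -0.15, -0.04 and 0.20 with intervals that include 0.

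Psme1, the alpha subunit of the PA28 activator, had 10.42 and 10.35 in OB-/-/SHP-/- livers, 10.35 and 10.16 in OB-/- livers, 9.66 and 9.55 in SHP-/- livers, and 9.63 and 9.72 in wild-type livers. Its arrays split by leptin: both leptin-null genotypes stood above both leptin-intact ones, and within each leptin background the genotypes overlapped. The difference between OB-/-/SHP-/- and OB-/- was 0.13 log2 with a 95% interval of -0.17 to 0.43 (adjusted p = 0.806), so the smallest difference among the inducible catalytic subunits, 1.75 log2, lay outside it.

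Tap1, the transporter subunit that gave the largest difference of the members, had 9.01 and 9.02 in OB-/-/SHP-/- livers, 6.17 and 6.59 in OB-/- livers, 7.35 and 7.30 in SHP-/- livers, and 6.94 and 6.85 in wild-type livers. No genotype overlapped another, and the order was OB-/-/SHP-/-, SHP-/-, wild-type, OB-/-. It was 6.20-fold higher in OB-/-/SHP-/- than in OB-/- livers (2.63 ± 0.15 log2, adjusted p = 1.8e-06) and ranked 17 of 12393 genes. Averaged with its 3 dim probe sets, described at the end, the difference was 0.71 log2 (adjusted p = 0.0170).

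Its partner Tap2 had 6.84 and 7.41 in OB-/-/SHP-/- livers, 5.89 and 6.09 in OB-/- livers, 6.58 and 6.93 in SHP-/- livers, and 6.75 and 6.51 in wild-type livers. The double knockout arrays differed from each other more than those of any other member, and they overlapped the SHP-/- arrays; only the OB-/- arrays stood apart, below the rest. The difference from OB-/- was 1.13 ± 0.20 log2 (2.19-fold, adjusted p = 0.0129). That call was lost without OB-/-/SHP-/- replicate 2 (adjusted p = 0.0883), without OB-/- replicate 1 (0.141) and without OB-/- replicate 2 (0.0832).

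Tapbp, the peptide editor tapasin, had 9.70 and 9.61 in OB-/-/SHP-/- livers, 9.09 and 8.92 in OB-/- livers, 9.05 and 9.20 in SHP-/- livers, and 9.15 and 9.02 in wild-type livers. The double knockout stood above the other genotypes, which overlapped one another. Its difference from OB-/- was the smallest of those called, at 0.65 ± 0.14 log2 (1.57-fold, adjusted p = 0.0335), and leaving out any 1 array of the OB-/-/SHP-/-, OB-/- or wild-type genotypes ended the call, at an adjusted p of up to 0.313.

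B2m, the light chain shared by all class I molecules, had 13.20 and 13.17 in OB-/-/SHP-/- livers, 13.08 and 12.98 in OB-/- livers, 12.99 and 12.96 in SHP-/- livers, and 12.89 and 12.66 in wild-type livers. Its signal was high on every array and spanned the smallest range of the members, with OB-/- and SHP-/- arrays overlapping. The difference between OB-/-/SHP-/- and OB-/- was 0.15 log2 (95% interval -0.14 to 0.45, adjusted p = 0.760).

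With leptin present, SHP loss gave 0 calls among the members. The shares of all genes called in SHP-/- against wild-type livers were 0.226% higher and 0.0968% lower, and 2 members, Psmb8 and Tap1, had an unadjusted p below 0.05, as had 882 of the 12393 genes. Psmb8 differed by 0.49 ± 0.16 log2 (1.41-fold, adjusted p = 0.444) and Tap1 by 0.43 ± 0.15 log2 (1.35-fold, adjusted p = 0.520). For 5 of the 8 members, Psmb8, Tap1, B2m, Psmb9 and Psmb10, the SHP-/- arrays lay above the wild-type arrays without overlap, as they did for 14.7% of all genes. The other differences were 0.22 for Psmb9, 0.20 for B2m, 0.13 for Tap2, 0.07 for Psmb10, 0.04 for Tapbp and -0.07 for Psme1, and all 6 intervals included 0. The median of the members was 0.17, against -0.03 over all genes.

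**Figure D3:**
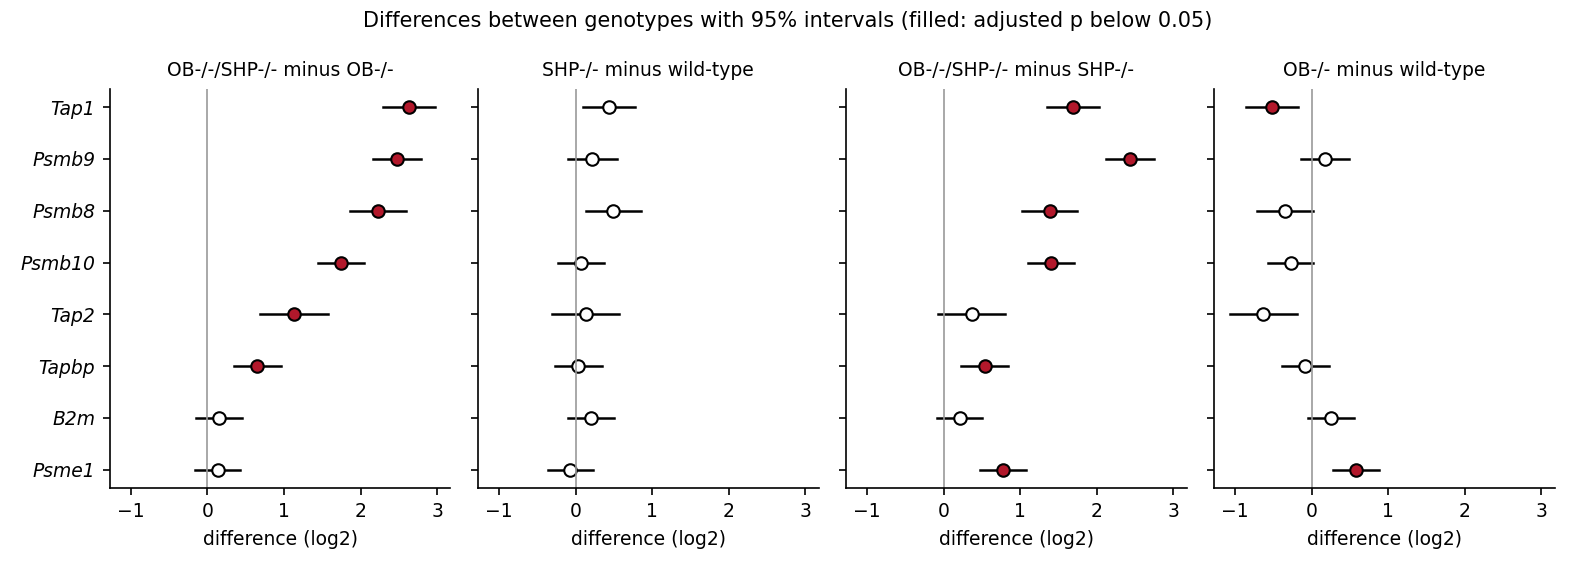
Differences between genotypes (log2) for the 8 measured genes with 95% intervals, in the comparisons of SHP loss (left pair) and of leptin loss (right pair); filled points passed an adjusted p of 0.05. Filled points are on the right of 0 for 6 genes in both comparisons of OB-/-/SHP-/- livers, for none in SHP-/- minus wild-type, and for Psme1 alone, with Tap1 on the left, in OB-/- minus wild-type.

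The effect of SHP loss in leptin-null livers and that in leptin-intact livers share no array, and their difference was tested as an interaction, which called 0.355% of all genes positive and 0.194% negative. Among the members 4 were called, all positive: Psmb9 by 2.25 ± 0.20 log2 (adjusted p = 1.8e-04), Tap1 by 2.20 ± 0.22 (4.0e-04), Psmb8 by 1.73 ± 0.23 (0.00469) and Psmb10 by 1.68 ± 0.19 (0.00133). The Psmb8 call was lost without wild-type replicate 2 (adjusted p = 0.0556) and without both OB-/- replicate 1 and SHP-/- replicate 1 (0.0929). With the mean of all its probe sets in place of the brightest, Tap1 gave 0.74 log2 and no call (adjusted p = 0.147). Tap2 (1.00 ± 0.28, adjusted p = 0.242) and Tapbp (0.62 ± 0.19, 0.317) did not pass, nor did Psme1 (0.20) and B2m (-0.05).

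Leptin loss with SHP present gave member calls in both directions. In OB-/- against wild-type livers 7.58% of all genes were called higher and 9.36% lower, and of the 8 members 1 was called higher and 1 lower, a share near that background. Psme1 was higher by 0.58 ± 0.14 log2 (1.49-fold, adjusted p = 0.0139) and Tap1 was lower, at -0.51 ± 0.15 log2 (adjusted p = 0.0409). Neither call held in every fit with 1 array left out. Psme1 was lost at 0.48 log2 without OB-/- replicate 1 and at 0.53 without wild-type replicate 1. Tap1 was lost at -0.31 without OB-/- replicate 1, at -0.47 without wild-type replicate 1 and at -0.56 without wild-type replicate 2. Fewer of all genes were called in these fits too, so the losses need not be particular to these members. Tap2 at -0.63 ± 0.20 log2 (adjusted p = 0.0516, called lower in 10 of 19 alternatives), Psmb8 at -0.35 and Psmb10 at -0.28 did not pass, and nor did B2m at 0.25, Psmb9 at 0.18 and Tapbp at -0.08.

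Leptin loss in the absence of SHP was read from a further pair of genotypes. In OB-/-/SHP-/- against SHP-/- livers 6 members were called higher and 0 lower, where 4.95% of all genes were called higher and 5.62% lower. Psmb9 differed by 2.43 log2, Tap1 by 1.69, Psmb10 by 1.40, Psmb8 by 1.38, Psme1 by 0.78 (adjusted p = 0.0047) and Tapbp by 0.53 (adjusted p = 0.0323), while Tap2 (0.37, adjusted p = 0.282) and B2m (0.21, adjusted p = 0.376) did not pass. The Tapbp call was lost without any 1 array of these genotypes (adjusted p up to 0.158). This comparison shares its OB-/-/SHP-/- arrays with the first one, so the values stand side by side and are no second observation.

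Set against wild-type livers, OB-/-/SHP-/- livers had 6 genes called higher and 0 lower, where 7.6% of all genes were higher and 8.25% lower. Psmb9 differed by 2.65 log2 (6.27-fold), Tap1 by 2.12, Psmb8 by 1.88, Psmb10 by 1.47, Psme1 by 0.71 (adjusted p = 0.0054) and Tapbp by 0.57 (adjusted p = 0.0177). The Psme1 call was lost without wild-type replicate 1 (adjusted p = 0.0504), and that of Tapbp without any 1 array of these genotypes (up to 0.106). B2m at 0.41 (95% interval 0.11 to 0.71, adjusted p = 0.0642) and Tap2 at 0.50 (adjusted p = 0.122) did not pass. All 8 members had OB-/-/SHP-/- arrays above the wild-type arrays without overlap, against 27.9% of all genes. B2m was called with a mean-dependent prior (adjusted p = 0.0107) and Tap2 without OB-/-/SHP-/- replicate 1 (0.0290). The constitutive subunit Psmb7 was also called higher here, by 0.54 ± 0.13 log2 (adjusted p = 0.0202), a call lost without either OB-/-/SHP-/- array or without wild-type replicate 2 (adjusted p up to 0.128).

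Over the 8 arrays the members followed each other closely except for 3. Psmb8, Psmb9, Psmb10, Tap1 and Tapbp correlated pairwise at Pearson r of 0.91 to 0.99, Tap2 with them at 0.62 to 0.84, and B2m with them at 0.58 to 0.73. Psme1 had r of 0.39 to 0.68 with those 5 and -0.09 with Tap2. These values describe 8 arrays of 4 genotypes and include the genotype differences given above. The mean of the 8 members, each centred on its own mean, was 0.88 and 1.01 in OB-/-/SHP-/- livers, -0.49 and -0.41 in OB-/- livers, -0.16 and -0.15 in SHP-/- livers, and -0.33 and -0.36 in wild-type livers (log2).

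Most of the neighbouring machinery was not called between OB-/-/SHP-/- and OB-/- livers. Only 1.26% of all genes were called higher and 0.88% lower there, so 0 calls in a list of this size is near that share. Of 20 measured subunits of the 19S cap, which recognises ubiquitinated proteins, 0 were called in either direction at a median difference of 0.07 log2. The same held for 0 of 8 other activators and assembly factors at a median of 0.09. Of 10 class I heavy chains with a probe set of their own, 0 were called at a median of 0.02, and 7 more heavy chains were measured only through probe sets shared between genes, which stayed out. The list took in the class I-like genes Cd1d1, Mr1, Fcgrt and Hfe. H2-Q2 and H2-T24 were dim, averaging 2.63 and 3.71 log2 over the 8 arrays. H2-K1 had 13.11 and 13.14 in OB-/-/SHP-/- livers against 13.12 and 13.00 in OB-/- livers, a difference of 0.07 log2. H2-D1 had 12.03 and 11.93 in OB-/-/SHP-/- livers against 12.01 and 11.83 in OB-/- livers, a difference of 0.06. Both present peptides with B2m, and heavy chain genes share much sequence; how far their probe sets cross-hybridise was not tested.

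**Figure D4:**
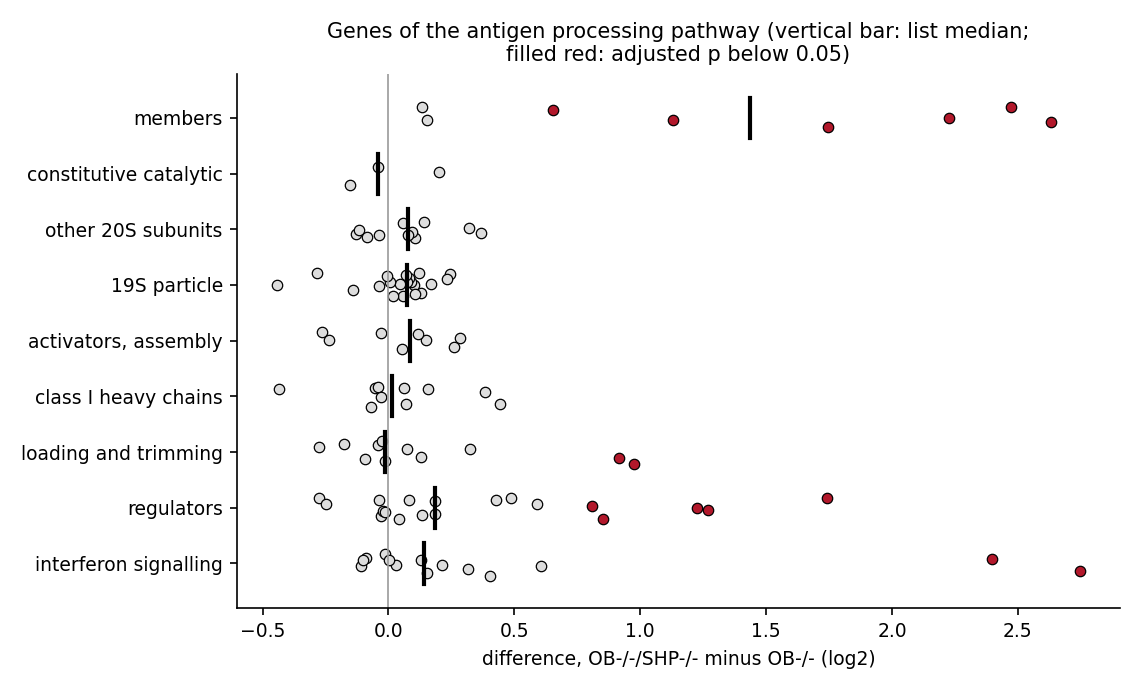
Difference between OB-/-/SHP-/- and OB-/- livers (log2) for each measured gene of the members and of 8 lists from the same pathway, with the list median as a bar and genes past an adjusted p of 0.05 in red. The member median lies at 1.44, the medians of the lists lie between -0.04 and 0.19, and the red points outside the members belong to the loading, regulator and interferon lists.

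Of 11 other peptide loading and trimming factors 2 were called higher and 0 lower. Erap1, the aminopeptidase that trims peptides in the endoplasmic reticulum, had 8.26 and 8.32 in OB-/-/SHP-/- livers against 7.48 and 7.27 in OB-/- livers (0.91 ± 0.13 log2, adjusted p = 0.00463). Tapbpl (TAPBPR), a tapasin relative that edits peptides, had 7.67 and 7.47 in OB-/-/SHP-/- livers against 6.57 and 6.62 in OB-/- livers (0.98 ± 0.15, adjusted p = 0.00583), and its interaction was called at 1.15 (adjusted p = 0.0400). The Erap1 call was lost without OB-/- replicate 2 (adjusted p = 0.0745), that of Tapbpl without either OB-/- array (up to 0.0705), and the Tapbpl interaction without any 1 array other than OB-/-/SHP-/- replicate 2 and SHP-/- replicate 2 (up to 0.182). Calr and Hspa5, general chaperones of the endoplasmic reticulum, had differences of -0.18 and -0.28 that did not pass, whereas both were called lower in OB-/- against wild-type livers, at -0.81 and -0.67. That Calr call was lost without any 1 array of these genotypes (adjusted p up to 0.128), and that of Hspa5 without OB-/- replicate 2 (0.0521) or wild-type replicate 2 (0.0506).

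Among 19 measured regulators of class I genes 5 were called higher and 0 lower between OB-/-/SHP-/- and OB-/- livers. Irf1, the interferon-induced activator of class I promoters, had 9.34 and 8.95 in OB-/-/SHP-/- livers against 7.12 and 7.69 in OB-/- livers (1.74 ± 0.20 log2, adjusted p = 7.3e-04), and its wild-type arrays, at 7.94 and 8.16, stood above both OB-/- arrays. Irf8, best known from myeloid cells, had 6.80 and 7.03 in OB-/-/SHP-/- livers against 5.71 and 5.67 in OB-/- livers (1.23 ± 0.13, adjusted p = 5.0e-04). Irf7, a driver of type I interferon genes, had 8.42 and 8.60 in OB-/-/SHP-/- livers against 7.06 and 7.43 in OB-/- livers (1.27 ± 0.16, adjusted p = 0.0018). For these 3 the arrays of OB-/-/SHP-/- livers stood above those of all other genotypes. Stat3, a cytokine-activated factor, had 9.85 and 9.66 in OB-/-/SHP-/- livers against 9.11 and 8.78 in OB-/- livers (0.81 ± 0.16, adjusted p = 0.0220), lost without either OB-/-/SHP-/- array or OB-/- replicate 2. The fifth, Irf9, lay outside the rule for named genes and was added after its values were seen (0.85 ± 0.18, adjusted p = 0.0374). Over the alternatives 3 to 5 regulators were called. The interaction was called for Irf1 (1.87, adjusted p = 0.0118) and Irf8 (1.16, adjusted p = 0.0197), each losing the call without 1 of several arrays, at adjusted p of up to 0.108 and 0.115. Nlrc5, the class I transactivator, is not analysed here.

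Of 14 interferon ligands, receptors and brakes 2 were called higher and 0 lower. Usp18, an interferon-induced brake on the type I receptor, had 8.48 and 8.49 in OB-/-/SHP-/- livers against 6.16 and 6.01 in OB-/- livers (2.40 ± 0.16 log2, adjusted p = 6.4e-06). Cd274, which encodes the interferon-induced ligand PD-L1, had 8.19 and 7.38 in OB-/-/SHP-/- livers against 4.88 and 5.20 in OB-/- livers (2.75 ± 0.23, adjusted p = 3.8e-05). The interaction was called for both, at 1.61 for Usp18 (adjusted p = 0.0073, lost without OB-/- replicate 2, either wild-type array, or both OB-/- replicate 1 and SHP-/- replicate 1, up to 0.0671) and 2.58 for Cd274 (adjusted p = 0.0025). The ligand gene Ifng itself had 2.94 and 3.06 in OB-/-/SHP-/- livers against 3.14 and 3.04 in OB-/- livers, and lay at 3.03 to 3.27 in the leptin-intact livers, so its signal was dim on every array and its difference of -0.09 did not pass (adjusted p = 0.895).

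The lists were read in the other comparisons too. SHP-/- against wild-type livers gave 0 calls in all 8 lists, Usp18 coming nearest at 0.79 log2 (adjusted p = 0.0911). In OB-/- against wild-type livers 7.58% of all genes were called higher and 9.36% lower. Of the 19 regulators 1 was higher and 7 were lower there, among them Irf2 at -1.04 and Stat3 at -0.83 log2. Socs3 was lower at -1.25 while Ifngr2 was higher at 0.75. Of the 10 heavy chains 4 were higher there and 0 lower, H2-M3 by 0.73 and H2-D1 by 0.52, and 3 of the 11 peptide loading factors were lower. Over the alternatives the calls numbered 2 to 9 for regulators, 0 to 6 for heavy chains and 1 to 5 for loading factors. The share of all genes called moved over these alternatives as well. It was 16.9% in the main fit and 24.7% with the filter on dim genes, and it fell where 1 of the compared arrays was left out. Proteasome genes were called singly: Psmd8 at 0.58 and Psmg2 at 0.62 were higher, and Psmd9 at -0.65 and Psmg1 at -0.57 lower. In OB-/-/SHP-/- against SHP-/- livers Cd274 differed by 2.92, Usp18 by 1.32, Irf8 by 1.16, Tapbpl by 1.05, H2-M3 by 0.78 and Mr1 by 0.65, against -0.99 for Nfya, -0.94 for Hspa5 and -0.62 for Psmg1. Of these calls under 1 log2 unit, those of Nfya and Hspa5 in the last comparison alone were kept whichever array was left out. In OB-/-/SHP-/- against wild-type livers the largest were Cd274 at 3.09, Usp18 at 2.10, Irf7 at 1.68 and Irf8 at 1.22, with Erap1 at 0.98, H2-M3 at 0.89 and Mr1 at 0.63 higher and Hspa5 at -0.95 lower, of which Mr1 was lost without wild-type replicate 2 (adjusted p = 0.0841). Proteasome calls there were Psmd7 at 0.55 and Psmf1 at 0.49, and Psmd9 at -0.53 and Psmg1 at -0.51, all lost under at least 1 other setting.

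**Figure D5:**
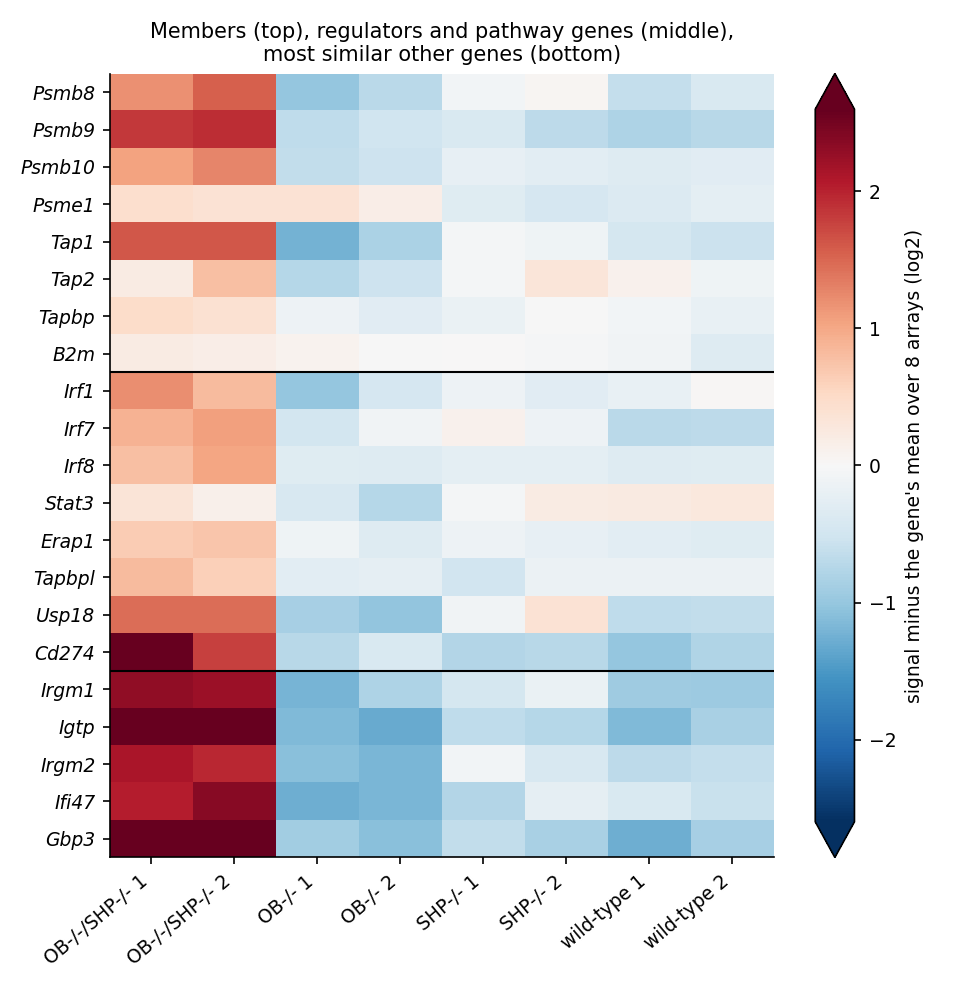
Signal of each gene minus its mean over the 8 arrays (log2, red above and blue below the mean; colours saturate at the ends of the scale) for the members, for 8 of the 9 genes called in OB-/-/SHP-/- against OB-/- livers in 3 pathway lists (all but Irf9), and for the 5 other genes most like the members. The OB-/-/SHP-/- columns are red in every row drawn, faintly so for B2m, Psme1, Tapbp and Stat3, and for Tap2 on OB-/-/SHP-/- replicate 1. Irf9, not drawn, had 6.52 and 7.13 in OB-/-/SHP-/- livers, the first below its mean of 6.64.

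The 5 genes outside all lists whose values were most like the mean of the members over the 8 arrays were Irgm1 (Pearson r = 0.994), Igtp (0.992), Irgm2 (0.987), Ifi47 (0.984) and Gbp3 (0.980). All are interferon-inducible GTPases. Irgm1 had 10.57 and 10.49 in OB-/-/SHP-/- livers against 7.05 and 7.46 in OB-/- livers, a difference of 3.28 ± 0.17 log2. Igtp had 11.55 and 11.63 in OB-/-/SHP-/- livers against 7.54 and 7.37 in OB-/- livers, a difference of 4.14 ± 0.15 log2. The 5 genes were chosen by their likeness to the members on these same arrays. Differences in this direction therefore follow from the choice and are no further observation. The promoter windows of 4 of the 5 held the interferon element, and in Igtp, shown above, the element GAAACTGAAA began 34 bases and the STAT site TTCTAGGAA 45 bases before the start site. The first Irf1 window held the STAT site TTCCCCGAA, beginning 90 bases before its start.

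Markers of other cell types were read beside these results, and the shares of all genes called are those given above for each comparison. Of 12 measured Kupffer cell and macrophage markers 2 were called higher and 0 lower between OB-/-/SHP-/- and OB-/- livers, Mpeg1 by 1.70 and Marco by 1.60 log2, at a median of -0.02. Their summed linear signal was 4589 to 6223 in OB-/-/SHP-/- livers, 4194 to 4205 in OB-/- livers, 2546 to 3591 in SHP-/- livers and 1422 to 1454 in wild-type livers. In OB-/- against wild-type livers, where Psme1 was called higher and Tap1 lower, 10 of the 12 were higher, at a median of 1.46. In SHP-/- against wild-type livers, where no member was called, 1 was higher, 10 had an unadjusted p below 0.05 and the median was 0.84. Of 15 measured T and NK cell markers 0 were called in any comparison, and 12 lay below 4.83, the level under which 40% of probe sets fell. The T and NK sum was 373 to 421 in OB-/-/SHP-/- livers, 375 to 388 in OB-/- livers, 342 to 349 in SHP-/- livers and 343 to 382 in wild-type livers. Between OB-/-/SHP-/- and OB-/- livers the differences of all 15 ran from -0.30 to 0.37 log2, at a median of 0.08. As examples from the list, Cd3d, Cd3g, Cd8a and Ncr1 averaged 4.42, 3.77, 4.24 and 3.46 log2 in OB-/-/SHP-/- livers against 4.54, 3.40, 4.18 and 3.49 in OB-/- livers. All 7 measured hepatocyte markers were above that level on average, and 0 of them, of 7 endothelial, 5 B or plasma cell, 7 dendritic cell, 5 neutrophil and 3 cholangiocyte markers were called between OB-/-/SHP-/- and OB-/- livers. At an unadjusted p below 0.05 stood 3 hepatocyte, 1 endothelial and 1 neutrophil marker. The part of any of these cells in the member results was not tested.

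Other signs set the arrays apart as well. Pancreatic acinar markers summed to 290 to 324 in OB-/-/SHP-/- livers and 1009 to 1325 in OB-/- livers, against 347 to 370 in SHP-/- livers and 381 to 389 in wild-type livers, so the OB-/- samples carried the most pancreatic signal, and 4 of 8 markers were lower in OB-/-/SHP-/- than in OB-/- livers. The 3′ minus 5′ signal of Gapdh, a sign of RNA integrity, averaged 0.07 in OB-/-/SHP-/-, -0.04 in OB-/-, 0.27 in SHP-/- and 0.90 in wild-type livers. That of Actb averaged 0.86 in OB-/-/SHP-/-, 0.83 in OB-/-, 1.30 in SHP-/- and 1.88 in wild-type livers. The OB-/-/SHP-/- and OB-/- averages lay close together. SHP-/- livers lay below wild-type livers for both genes, and OB-/- and OB-/-/SHP-/- livers lay further below them. Every comparison with wild-type livers, and with it the interaction, therefore carried a difference in this sign. So did the comparison of OB-/-/SHP-/- with SHP-/- livers. Nr0b2 itself had 7.11 and 6.66 in OB-/-/SHP-/- livers against 8.01 and 8.01 in OB-/- livers, and 7.78 and 8.31 in SHP-/- livers against 8.74 and 8.71 in wild-type livers. Its difference was -1.13 log2 between OB-/-/SHP-/- and OB-/- livers (adjusted p = 0.0108, lost without OB-/-/SHP-/- replicate 2 or either OB-/- array) and -0.68 between SHP-/- and wild-type livers (adjusted p = 0.286). Whether its probe set lies in the deleted part is not known. The part of these signs in the member results was not tested. Measured without both OB-/- replicate 1 and SHP-/- replicate 1 the genes Psmb8, Psmb9, Psmb10 and Tap1 kept their calls between OB-/-/SHP-/- and OB-/- livers.

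Further probe sets did not always follow the chosen one. Tap1 had 3 others, all dim: their signals lay between 3.05 and 5.00 on every array, their differences between OB-/-/SHP-/- and OB-/- livers were 0.36, 0.07 and -0.22 log2, and none was called. The second Tapbp probe set had 8.56 and 9.03 in OB-/-/SHP-/- livers, 8.12 and 7.95 in OB-/- livers, 7.99 and 7.84 in SHP-/- livers, and 7.15 and 7.18 in wild-type livers. It therefore separated wild-type livers from all others, which the chosen one did not: its difference between OB-/-/SHP-/- and OB-/- was 0.76, which did not pass (adjusted p = 0.0605), and its interaction 0.01, against 0.65 and 0.62 for the chosen one. In OB-/- against wild-type livers it was called higher at 0.87 (adjusted p = 0.0061), where the chosen one gave -0.08. The second B2m probe set, at 12.55 and 12.32 in OB-/-/SHP-/- livers against 12.76 and 12.10 in OB-/- livers, was not called in any comparison. Psmb8, Psmb9, Psmb10, Psme1 and Tap2 each had 1 probe set, so for them this check could not be made.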

How the data were processed

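Liver RNA of 4 genotypes was measured on 8 arrays. The deposited values are log2 signals per probe set (range 2.20 to 14.19, array medians 5.45 to 5.56), for which the authors used R 2.15.0, per the submitters' processing notes. How background, normalisation and summarisation were handled is not given, and the log base was read from the range. Of 22690 probe sets 64 controls were left out, 20380 named 1 gene and 691 several. Each of 12393 genes took its brightest probe set.

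limma 3.58.1, run in R 4.3.3, fitted one mean per genotype over all arrays (eBayes, two-sided, Benjamini-Hochberg over all genes, called below 0.05), tested on simulated data. The arrays limit precision: 4 residual and 7.16 prior degrees of freedom. The members, the 8 pathway lists and 9 marker lists were chosen with earlier results of these data known. Named from each list were up to 4 genes with the smallest adjusted p in OB-/-/SHP-/- minus OB-/- and up to 2 in other comparisons, the 3 constitutive subunits, and the 5 genes most correlated with the members. In all 19 alternatives were run: other scalings, filters and probe set choices, a replicate block and leaving out arrays.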

Additional observations from a re-analysis of the deposited data

Results flagged for a closer look

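Among the members 4 genes differed in their SHP effect between leptin-null and leptin-intact livers by the interaction test. The difference was 2.25 log2 for Psmb9, 2.20 for Tap1, 1.73 for Psmb8 and 1.68 for Psmb10. In each case the arrays of OB-/-/SHP-/- livers stood above those of OB-/- livers by more than 1.5 log2 units, while SHP-/- and wild-type livers differed by under 0.5 log2 units.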

How the results depend on the processing

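In every pairwise comparison except SHP-/- against wild-type livers, leaving out 1 of the compared arrays also lowered the calls over all genes. A member call lost in such a fit therefore need not be particular to that member. Between OB-/-/SHP-/- and OB-/- livers Psmb8, Psmb9, Psmb10 and Tap1 were called higher under all 19 alternatives. The number of members called ranged from 4 to 6 when 1 array was left out, against 6. It ranged from 5 to 6 between OB-/-/SHP-/- and SHP-/- livers, from 4 to 6 between OB-/-/SHP-/- and wild-type livers, from 3 to 4 for the interaction, and stayed at 0 between SHP-/- and wild-type livers. Between OB-/- and wild-type livers, where 2 were called, it ranged from 0 to 3, being 0 without OB-/- replicate 1 or wild-type replicate 1, and 1 without wild-type replicate 2. It was 1 after quantile normalization, 1 with all probe sets of a gene averaged, and 0 without both OB-/- replicate 1 and SHP-/- replicate 1. The replicate block left 6, 0 and 4 members called for SHP loss in leptin-null livers, in leptin-intact livers and for the interaction, and it changed 1 member call, adding Tap2 between OB-/- and wild-type livers (-0.63 log2, adjusted p = 0.0375). Tap2 was called there in 10 of the 19 alternatives, among them equal array medians, the filter on dim genes, trended and robust priors, and a fit to the 2 genotypes alone (adjusted p over all 19 from 0.0076 to 0.278). The arrays share only a number: same-numbered deviations correlated at -0.107 to 0.196 between genotypes.

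Signs turned only for values that were not called. With all probe sets of a gene averaged, Tap1 was -0.030 between SHP-/- and wild-type livers and Tapbp 0.39 between OB-/- and wild-type livers. Leaving out 1 array at a time, the B2m interaction ranged from -0.16 to 0.068 (0.0030 without OB-/- replicate 1), Tapbp from -0.17 to 0.0040 between OB-/- and wild-type livers, and Psmb6 from -0.15 to 0.072 between OB-/-/SHP-/- and OB-/- livers (0.0016 without OB-/- replicate 2). Between SHP-/- and wild-type livers Tap2 ranged from -0.046 to 0.31, Tapbp from -0.038 to 0.11 (-0.028 without wild-type replicate 2) and Ifi47 from -0.28 to 0.26 (0.087 without wild-type replicate 1). Without both doubted arrays the B2m interaction was 0.021 and Ifi47 0.26. The cause was not tested. A lone array was taken to vary like the other genotypes, and 2 arrays a genotype limit what small differences can be resolved.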
